A study of Homo sapiens with 6 samples.

Results

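The heat shock chaperones of the cytosol and the mitochondrial matrix were followed at transcript level in 786-O cells, a line established from a clear cell carcinoma of the human kidney. The 10 genes, HSP90AA1, HSP90AB1, HSPA8, HSPA1A, HSPA1B, HSPD1, HSPE1, HSPH1, DNAJB1 and HSPB1, were chosen by name, and each matched 1 of the 62703 rows of the deposited table. The 3 samples of interest were 786-O cells overexpressing OGT, the enzyme that adds O-linked N-acetylglucosamine to nuclear and cytosolic proteins, and the other 3 were 786-O control cells of wild-type genotype. Both were grown in the same serum-containing medium, and neither the vector, nor whether the overexpressing cells were 1 clone or a pool, is given in the sources used here. Separate cultures are not stated for the replicates, and p-values therefore cover the spread among these samples alone, part of which may be technical.

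Heat shock chaperones bind unfolded or partly folded proteins and use ATP cycles, or passive holding, to keep them from aggregating. HSP70 proteins take up new and damaged chains with help from J-domain partners and nucleotide exchange factors, and pass some of them to HSP90, which matures kinases, steroid receptors and other clients. In mitochondria the HSP60 barrel and its HSP10 lid fold imported proteins. Some of these genes are expressed constantly, and others are strongly induced by heat shock factor 1 (HSF1) under proteotoxic stress through heat shock elements in their promoters, which are runs of GAA and its complement TTC in alternation.

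The promoter letters are shown first because they separate the genes by a feature that does not depend on the expression values. RefSeq windows on GRCh38.p14, from 250 bases before to 50 bases after a start site, were found for all 10 genes, 16 windows in all. They were searched on both strands for a 3-unit heat shock element, GAA and TTC in alternation with any 2 bases between units and either one first, and for its shorter 2-unit form GAANNTTC (reverse complement TTCNNGAA), which every 3-unit match contains. The 3-unit element occurred in 4 windows, of 4 different genes, against 0.490% of the 35116 windows of all genes. The 2-unit letters occurred in 13.5% of all windows. A match is a description of letters and not a measured binding site. The 3-unit matches are given on the strand of the gene with the match in capitals and the flanks in lower case. In HSPD1 a pair of overlapping matches is written as 1 run.
HSP90AA1, chr14:102087112-102087140, minus strand, match 88 bases before the start: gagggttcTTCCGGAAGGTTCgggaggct
HSP90AB1, chr6:44247770-44247798, plus strand, match 165 bases before the start: ggagcaggTTCTGGAAGATTCatgggctc
HSP90AB1, chr6:44247823-44247851, plus strand, match 112 bases before the start: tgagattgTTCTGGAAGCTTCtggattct
HSPA8, chr11:123062346-123062374, minus strand, match 230 bases before the start: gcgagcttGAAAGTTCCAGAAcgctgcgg
HSPA8, chr11:123062171-123062199, minus strand, match 55 bases before the start: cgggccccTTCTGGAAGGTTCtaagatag
HSPD1, chr2:197500061-197500090, minus strand, match 245 bases before the start: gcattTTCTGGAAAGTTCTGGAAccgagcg

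HSP90AA1, HSP90AB1 and HSPD1 have other start sites whose windows hold no such letters, and the matches of HSPA8, HSP90AA1 and HSPD1 overlap exons in GENCODE release 29. The HSPD1 run overlaps exons of both HSPD1 and HSPE1 and lies 189 bases downstream of the other HSPD1 start site. HSPA1A, HSPA1B, HSPB1 and DNAJB1 held only the 2-unit letters, and the windows of HSPE1 and HSPH1 held neither. HSPD1 and HSPE1 are divergent neighbours on chromosome 2, with start sites 105 bases apart, and the HSPD1 run lies 294 bases upstream of the HSPE1 start, outside the HSPE1 window. HSPA1A and HSPA1B are shown because their promoters, like their transcripts, are nearly the same, which bears on how reads can be assigned: aligned over 250 bases upstream, 235 positions were identical, 14 differed and 2 were gaps. Their 2-unit match and their TATA letters are in capitals.
HSPA1A, chr6:31815429-31815452, plus strand, 2-unit match: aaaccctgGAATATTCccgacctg
HSPA1B, chr6:31827625-31827648, plus strand, 2-unit match: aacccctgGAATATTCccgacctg
HSPA1A, chr6:31815504-31815527, plus strand, TATA letters: gtgacgactTATAAAagcccaggg
HSPA1B, chr6:31827700-31827723, plus strand, TATA letters: acgacgactTATAAAagccgaggg

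Levels were deposited as TPM, a relative transcript abundance scaled for transcript length and for the library. Read totals are lost in this unit, so depth is unknown and counting error cannot be stated. OGT transcript was 352.74, 352.92 and 270.87 TPM in the overexpressing samples, against 23.11, 22.57 and 23.62 TPM in the controls, so the targeted gene was high where the labels say. Of 9 renal carcinoma markers all 9 reached 1 TPM in at least 3 libraries, while 0 of 4 endothelial, 0 of 5 fibroblast and 1 of 4 leukocyte markers (CD68) did. Control library 1 had 12.23 TPM of the leukocyte gene PTPRC and 3.91 TPM of the endothelial gene KDR, which were at most 0.07 and 0.23 TPM in the other 5 libraries. The part of this in the results was not tested, but values without that library are given where they change a call.

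A gene was tested where 3 or more samples reached 1 TPM, which 12645 did, with limma on log2(TPM + 1), and an adjusted p below 0.05 (Benjamini-Hochberg over all tested genes) was called a change. In that comparison 39.1% of tested genes were called higher and 9.70% lower in OGT-overexpressing cells, 48.8% in all, and the median change over them was 0.30 on the log2 scale. A change near 0.30 is therefore the typical one. Changes also followed transcript composition: across the 12348 genes with a reference transcript, which are not independent replicates, the Spearman correlation of the change was -0.472 with GC content and 0.386 with length. Each chaperone gene is therefore also given with the libraries centred on their median, and with the trend of each library on GC content and length taken out.

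Of the 10 chaperone genes 9 passed the filter, 6 rose, 0 fell and 3 were not called, where 39.1% of all tested genes rose and 9.70% fell. In bulk RNA, more cells with a transcript and more transcript per cell cannot be told apart. At an unadjusted limma p below 0.05 the numbers were the same. The 6 that rose were HSP90AA1, HSPH1, HSPD1, HSPA1B, HSP90AB1 and HSPA8, and the 3 without a call were HSPE1, HSPB1 and DNAJB1. The median log2 change of the 9 was 0.60, beside 0.30 over all tested genes. After median centring 4 were higher and 2 lower, where 15.3% and 24.2% of all tested genes were. With the GC and length trend removed 6 were higher and 1 lower, where 16.0% and 12.8% of all genes in that fit were. These were not the same 6 genes, since HSPA8 lost its call and HSPB1 gained one. The groups did not overlap in the 6 genes that rose, as in 58.6% of all tested genes. HSP90AA1, HSPH1 and HSPD1 exceeded a log2 change of 1, as 10.7% of all tested genes did with a call. These 3 stood 22nd, 136th and 330th from the top when all 12645 tested genes were ordered by log2 change.

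**Figure D1:**
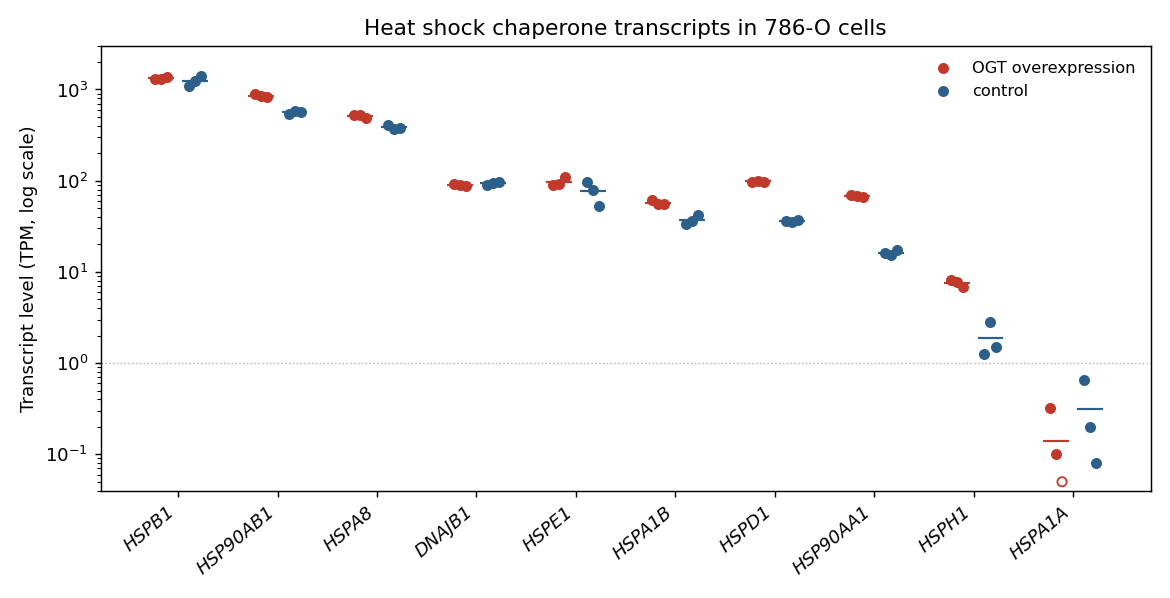
TPM (log axis) of the 10 chaperone genes in each library, ordered by the control mean, with OGT-overexpressing samples in red left of the controls in blue; points are libraries, short lines are means over n = 3, the dotted line is 1 TPM and the open circle at the lower edge is a value of 0 TPM. The red and blue points separate most widely for HSP90AA1, HSPH1 and HSPD1, whereas they overlap for HSPB1, DNAJB1, HSPE1 and HSPA1A.

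Both cytosolic HSP90 genes rose, and their levels were very unequal in both groups. HSP90AA1 (ENSG00000080824, chromosome 14, 102080738 to 102139699, minus strand, GRCh38 in GENCODE release 29), which encodes the stress-inducible cytosolic HSP90α, had 69.41, 67.59 and 65.77 TPM in OGT-overexpressing samples, against 15.96, 15.46 and 17.43 TPM in controls. All OGT samples lay far above all controls. The mean was 67.6 ± 1.82 TPM with OGT overexpression and 16.3 ± 1.02 TPM in controls (SD, n = 3 each), a ratio of 4.15. The log2 change was 1.99 (SE 0.0729, adjusted p = 2.13e-05 by limma). It remained called after median centring (log2 change 1.60) and with the GC and length trend removed (1.40), and its log2 change ran from 1.96 to 2.04 when each library was left out in turn.

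HSP90AB1 (ENSG00000096384, chromosome 6, 44246166 to 44253888, plus strand) encodes the constitutive HSP90β. It had 890.97, 858.04 and 817.51 TPM in OGT-overexpressing samples and 543.07, 580.05 and 569.44 TPM in controls, so it was the far more abundant of the pair in every library. Its log2 change was 0.60 (SE 0.0449, limma adjusted p = 1.46e-04). It was 0.21 after median centring (adjusted p = 0.019) and 0.22 with the trend removed (adjusted p = 0.0142). The ratio of HSP90AA1 to HSP90AB1 does not depend on a factor shared by all genes of a library. A trend on GC content or length does not cancel in this or the other ratios, and its part was not tested. The ratio was 0.0779, 0.0788 and 0.0805 with OGT overexpression, against 0.0294, 0.0267 and 0.0306 in controls. The ratio was higher in all 3 OGT samples, by 2.74-fold. The exact two-sided permutation test gave p = 0.1, the smallest that 3 against 3 samples allow, and p = 0.125 adjusted over the 5 ratios tested.

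Of the HSP70 genes, HSPA8 moved less than either cytosolic HSP90 gene, and HSPA1B as deposited moved about as much as HSP90AB1. HSPA8 (ENSG00000109971, chromosome 11, 123057489 to 123063230, minus strand) encodes the constitutive cytosolic HSC70, and its introns host small nucleolar RNAs. It had 522.21, 518.98 and 489.45 TPM in OGT-overexpressing samples, against 402.79, 366.49 and 381.74 TPM in controls. The groups did not overlap, and the log2 change was 0.41 (SE 0.0483, limma adjusted p = 6.88e-04), close to the median of all genes. The call was lost after median centring (log2 change 0.02, adjusted p = 0.708) and with the trend removed (0.01, adjusted p = 0.93).

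HSPA1B (ENSG00000204388, chromosome 6, 31827735 to 31830255, plus strand) and HSPA1A (ENSG00000204389, chromosome 6, 31815464 to 31817946, plus strand) encode the same stress-inducible HSP70 protein. HSPA1B had 60.72, 55.11 and 55.01 TPM in OGT-overexpressing samples, against 33.49, 36.12 and 41.63 TPM in controls. HSPA1A was listed at 0.32, 0.1 and 0 TPM in OGT-overexpressing samples and 0.65, 0.2 and 0.08 TPM in controls, and was not tested. Because the copies are nearly identical and the way reads were assigned is not given, the split between them is uncertain, and the near-absence of HSPA1A cannot be told apart from assignment of its reads to HSPA1B. Their sum, an alternative chosen after the data were seen, was 57.1 ± 3.43 TPM with OGT overexpression and 37.4 ± 3.90 TPM in controls (SD, n = 3 each), a log2 change of 0.60 (limma adjusted p = 0.00192). HSPA1B alone had a log2 change of 0.61 (SE 0.0937, adjusted p = 0.00204 by limma) and 0.57 with the trend removed (adjusted p = 0.00385), but was not called after median centring (0.22, adjusted p = 0.107). The ratio of HSPA1B to HSPA8 was 0.116, 0.106 and 0.112 with OGT overexpression, against 0.0832, 0.0986 and 0.109 in controls. The groups overlapped in this ratio (exact permutation test, two-sided p = 0.2, adjusted over the 5 ratios p = 0.2).

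Among the partners of HSP70, HSPH1 rose and DNAJB1 was not called. HSPH1 (ENSG00000120694, chromosome 13, 31134974 to 31162388, minus strand) encodes HSP110 (HSP105), a nucleotide exchange factor that also holds unfolded chains. It was low, with 8.08, 7.79 and 6.87 TPM in OGT-overexpressing samples, against 1.27, 2.83 and 1.52 TPM in controls. All OGT samples were above all controls, with a ratio of means of 4.05. The log2 change was 1.61 (SE 0.23, limma adjusted p = 0.0015), and 2.04 with a pseudocount of 0.1, since adding 1 to such low values shrinks a change. HSPH1 also has the lowest GC content of the 10 reference transcripts (39.95%) and the greatest length (5191 bases), and with the trend removed its log2 change was 0.84 (adjusted p = 0.0384). The ratio of HSPH1 to HSPA8 was 0.0155, 0.015 and 0.014 with OGT overexpression, against 0.00315, 0.00772 and 0.00398 in controls, without overlap (3.23-fold, exact permutation p = 0.1, adjusted p = 0.125).

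DNAJB1 (ENSG00000132002, chromosome 19, 14514770 to 14529770, minus strand) encodes the J-domain protein HSP40, which delivers substrates to HSP70 and is a classic heat-inducible gene. Its levels were 91.23, 88.75 and 87.71 TPM in OGT-overexpressing samples and 90.52, 93.86 and 96.78 TPM in controls. The groups overlapped, and the log2 change was -0.07 with a 95% interval from -0.19 to 0.05 (limma adjusted p = 0.288). That interval lies below the median change of all genes. DNAJB1 was called lower under each rescaling: log2 change -0.46 after median centring (adjusted p = 8.27e-04), -0.19 after quantile normalization (adjusted p = 0.02) and -0.20 with the trend removed (adjusted p = 0.0168). The ratio of DNAJB1 to HSPA8 was 0.175, 0.171 and 0.179 with OGT overexpression, against 0.225, 0.256 and 0.254 in controls, lower in all 3 OGT samples (0.716-fold, exact permutation p = 0.1, adjusted p = 0.125).

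**Figure D2:**
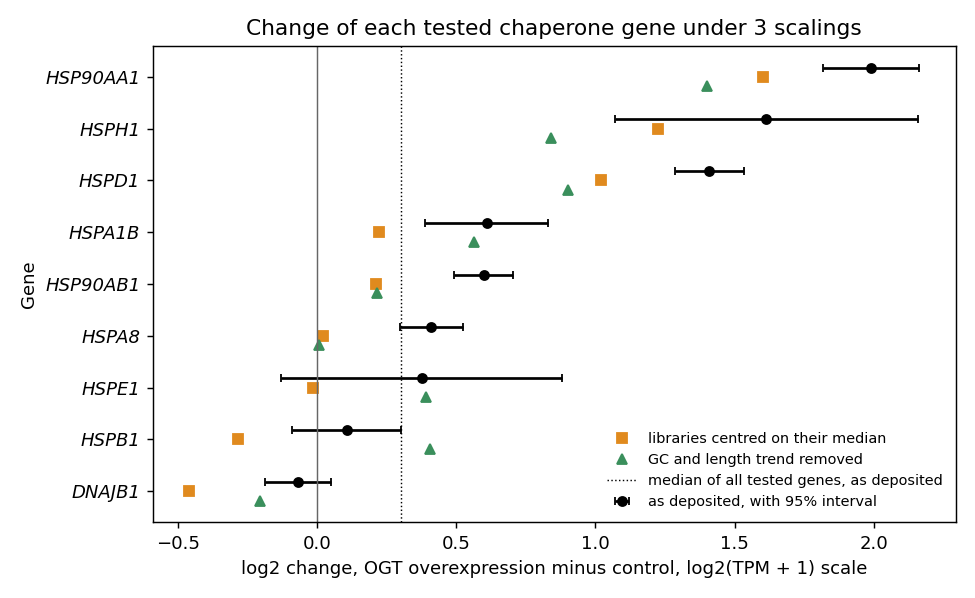
log2 change (OGT overexpression minus control, log2(TPM + 1) scale) of the 9 tested chaperone genes as deposited (black, bars are 95% limma intervals), after median centring (orange squares) and with the GC and length trend removed (green triangles); the dotted line is the median of all tested genes. HSP90AA1, HSPH1 and HSPD1 stay right of 0.8 in all 3, HSPA8 moves to about 0, DNAJB1 is left of 0 in all 3, and HSPB1 lies on either side of 0.

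Of the mitochondrial pair HSPD1 rose, and HSPE1 was not called. HSPD1 (ENSG00000144381, chromosome 2, 197486581 to 197516737, minus strand) encodes the chaperonin HSP60. It had 97.47, 99.26 and 97.52 TPM in OGT-overexpressing samples, against 36.2, 35.37 and 37.35 TPM in controls. The means were 98.1 ± 1.02 TPM with OGT overexpression and 36.3 ± 0.994 TPM in controls (SD, n = 3 each), a ratio of 2.70. The log2 change was 1.41 (SE 0.0529, adjusted p = 2.33e-05 by limma). It was 1.02 after median centring and 0.90 with the trend removed, both called.

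HSPE1 (ENSG00000115541, chromosome 2, 197499994 to 197503457, plus strand), which encodes the co-chaperonin HSP10, had 90.2, 91.28 and 108.45 TPM in OGT-overexpressing samples and 96.84, 79.15 and 52.83 TPM in controls. The groups overlapped through control library 1, and the controls spread widely. The log2 change was 0.38 with a 95% interval from -0.13 to 0.88 (limma adjusted p = 0.187). It was -0.01 after median centring (adjusted p = 0.966) and 0.39 with the trend removed (adjusted p = 0.200). Without control library 1 it was 0.57 and called (adjusted p = 0.0469), and without control library 3 it was 0.14 (adjusted p = 0.398). HSPE1 cannot be separated cleanly from the readthrough gene HSPE1-MOB4, which had 190.21, 208.16 and 176.99 TPM in OGT-overexpressing samples, against 173.45, 136.97 and 162.53 TPM in controls. Summed, a choice made after the data were seen, both entries gave 288 ± 9.86 TPM with OGT overexpression and 234 ± 31.5 TPM in controls (SD, n = 3 each), a log2 change of 0.31 that was called (limma adjusted p = 0.0274). GENCODE transcripts of HSPD1 and HSPE1 also overlap on opposite strands, and the strand of the libraries is not stated.

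The ratio of HSPD1 to HSPE1 was 1.08, 1.09 and 0.899 with OGT overexpression, against 0.374, 0.447 and 0.707 in controls. It was higher in all 3 OGT samples (2.08-fold, exact permutation p = 0.1, adjusted p = 0.125). With HSPE1-MOB4 added to HSPE1 the ratio was 0.348, 0.332 and 0.342 with OGT overexpression, against 0.134, 0.164 and 0.173 in controls (2.18-fold). Their reference transcripts differ in GC content (44.2% for HSPD1, 50.2% for HSPE1) and length (2455 bases for HSPD1, 950 bases for HSPE1), and the part of this in the ratio was not tested.

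**Figure D3:**
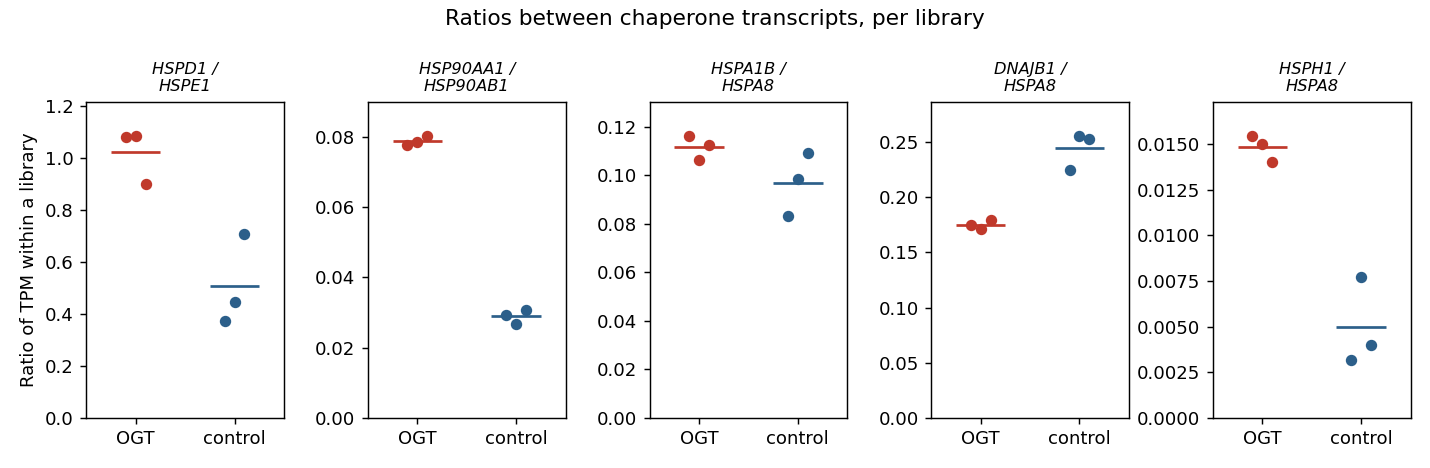
Ratios of TPM between chaperone genes within each library, with OGT-overexpressing samples (red) left of the controls (blue); each panel has its own axis from 0, points are libraries and lines are means over n = 3. The groups are apart in 4 of the 5 ratios, higher with OGT overexpression for HSPD1/HSPE1, HSP90AA1/HSP90AB1 and HSPH1/HSPA8 and lower for DNAJB1/HSPA8, and they overlap in HSPA1B/HSPA8.

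HSPB1 (ENSG00000106211, chromosome 7, 76302544 to 76304295, plus strand) encodes the small heat shock protein HSP27, an ATP-independent holdase that also binds actin and is known as a suppressor of ferroptosis. It was the most abundant of the 10, with 1297.85, 1310.86 and 1371.91 TPM in OGT-overexpressing samples and 1094.83, 1228.87 and 1391.13 TPM in controls. The groups overlapped, since control library 3 was the highest of all. The log2 change was 0.11 with a 95% interval from -0.09 to 0.30 (limma adjusted p = 0.326). Its sign depended on the scaling, at -0.28 after median centring (adjusted p = 0.0439) and 0.41 with the trend removed (adjusted p = 0.00877), and without control library 3 it was called as deposited (0.19, adjusted p = 0.0417). HSPB1 has the highest GC content (64.5%) and the shortest reference transcript (909 bases) of the 10 genes. Of its pseudogenes, HSPB1P1 was listed at 2 TPM in OGT library 1 and 7.72 TPM in control library 1 and at 0 in the others. Of 74 pseudogenes named for the chaperone genes, the other 73 reached at most 0.33 TPM.

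Together the 10 genes took 0.314%, 0.311% and 0.312% of all TPM in the OGT-overexpressing samples, against 0.233%, 0.245% and 0.26% in the controls. The order of mean levels with OGT overexpression was HSPB1, HSP90AB1, HSPA8, HSPD1, HSPE1, DNAJB1, HSP90AA1, HSPA1B, HSPH1 and HSPA1A. In that order HSPD1 (97.47 to 99.26 TPM) lay within the range of HSPE1 (90.2 to 108.45 TPM), and HSPE1 overlapped DNAJB1 (87.71 to 91.23 TPM). In controls DNAJB1 (90.52 to 96.78 TPM) stood next after HSPA8, within the range of HSPE1 (52.83 to 96.84 TPM), and HSPD1 (35.37 to 37.35 TPM) overlapped HSPA1B (33.49 to 41.63 TPM). HSPD1 was thus at the level of HSPA1B in controls and, by the HSPE1 entry alone, at the level of HSPE1 with OGT overexpression. With HSPE1-MOB4 added, HSPE1 had a mean of 288 TPM in OGT-overexpressing samples, above the 98.1 TPM of HSPD1.

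The wider chaperone network was read from 9 lists with 96 different genes, of which 83 were tested. The lists share some genes. In these lists 46 genes rose, 9 fell and 28 were not called, with a median log2 change of 0.45, beside 39.1% and 9.70% of all tested genes. After median centring 23 were higher and 28 lower, where 15.3% and 24.2% of all tested genes were. With the GC and length trend removed 24 were higher and 17 lower, where 16.0% and 12.8% of all genes in that fit were. After quantile normalization 34 were higher and 16 lower, where 2558 and 2245 of all 12645 tested genes were. The size of the balance towards higher genes thus depended on the scaling. It turned only after median centring, in the network as over all tested genes. These shares and counts over all genes also stand beside the counts of each list below. The 13 untested genes reached at most 1.85 TPM, among them HSPA6, a strictly heat-inducible HSP70, at no more than 0.65 TPM. The count of network genes that fell rested on few libraries: it was 4 without OGT library 2 and 3 without control library 2.

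Of 5 tested HSP70 and HSP110 relatives 3 rose and 0 fell, and 0 were lower even at an unadjusted p under 0.05 in limma. With the trend removed 1 was higher and 1 lower. HSPA4, an HSP110-type exchange factor, had 25.88, 25.29 and 27.71 TPM in OGT-overexpressing samples, against 10.06, 7.87 and 10.68 TPM in controls (log2 change 1.38, limma adjusted p = 2.74e-04). HSPA14 and HSPA13 had log2 changes of 1.04 and 0.97, and neither was called with the trend removed. Of 13 tested J-domain genes 8 rose and 1 fell as deposited, 3 were higher and 2 lower after median centring, and 3 were higher and 3 lower with the trend removed. DNAJA1, a main HSP40 partner of HSP70 in the cytosol, had 69.45, 66.0 and 65.21 TPM in OGT-overexpressing samples, against 33.54, 34.38 and 35.62 TPM in controls (log2 change 0.93, limma adjusted p = 8.83e-05). DNAJB6 and DNAJB12 rose by 0.58 and 0.59 on the log2 scale, DNAJB12 without a call after median centring (adjusted p = 0.0503). DNAJB2 fell by 0.21 (limma adjusted p = 0.0265), a call lost without OGT library 2 or 3 or control library 1 or 2 (adjusted p from 0.0611 to 0.0889).

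Of 9 tested exchange and partner factors of HSP70 6 rose and 1 fell as deposited, 2 were higher and 3 lower after median centring, and 2 were higher and 2 lower with the trend removed. The exchange factor gene BAG3 (log2 change 0.59) and the HSP70-interacting protein gene ST13 (0.48) rose as deposited, neither with a call after median centring, and ST13 was lower with the trend removed (-0.21, adjusted p = 0.0242). The ubiquitin ligase gene STUB1, whose product CHIP marks chaperone clients for degradation, fell by 0.30 on the log2 scale (limma adjusted p = 0.00303), without a call once the trend was removed. Of 20 HSP90 co-chaperone genes 12 rose and 3 fell as deposited. The balance turned after median centring, with 4 higher and 9 lower, as it did over all tested genes (15.3% higher and 24.2% lower). With the trend removed 6 were higher and 5 lower, beside 16.0% and 12.8% of all genes in that fit. TOMM34 had 79.25, 78.86 and 77.22 TPM in OGT-overexpressing samples and 38.68, 39.87 and 39.74 TPM in controls (log2 change 0.97, limma adjusted p = 5.11e-05). PTGES3, which encodes p23, rose by 0.70, and STIP1, which encodes the HOP adaptor between HSP70 and HSP90, by 0.30, a change of -0.09 after median centring. NUDCD2 (-1.45) and FKBPL (-0.45) were among those that fell. NUDCD2 had 5.72, 1.27 and 3.69 TPM in OGT-overexpressing samples and 10.5, 15.67 and 6.56 TPM in controls, and its call was lost without OGT library 2 or 3 or control library 1 or 2 (adjusted p from 0.0663 to 0.101). The call of FKBPL was lost without any library other than OGT library 3 (adjusted p from 0.0577 to 0.091) and with the trend removed.

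Of 13 mitochondrial chaperone and protease genes 4 rose and 4 fell as deposited, with a median log2 change of -0.14. Lower genes outnumbered higher ones under each rescaling. There were 3 higher and 8 lower after median centring, 2 and 7 after quantile normalization, and 1 and 5 with the trend removed. After quantile normalization 2558 of all 12645 tested genes were higher and 2245 lower. In each of the other lists higher genes outnumbered lower ones in that setting. Over all tested genes lower ones outnumbered higher ones after median centring only. HSPA9, the matrix HSP70 (mortalin), had 165.15, 159.81 and 150.08 TPM in OGT-overexpressing samples, against 71.5, 73.54 and 86.14 TPM in controls (log2 change 1.03, limma adjusted p = 1.71e-04), and 0.32 with the trend removed (adjusted p = 0.0222). GRPEL2, an exchange factor for HSPA9, and CLPX, the unfoldase of the ClpXP protease, rose by 1.25 and 1.37, neither called with the trend removed. Both were low in controls, GRPEL2 at 2.11, 1.72 and 2.71 TPM and CLPX at 0.42, 0.74 and 2.27 TPM. CLPX also lost its call after quantile normalization (limma adjusted p = 0.053). The protease gene HTRA2 had 72.25, 72.6 and 74.01 TPM in OGT-overexpressing samples, against 109.28, 93.11 and 105.3 TPM in controls (log2 change -0.48, limma adjusted p = 0.00153). CLPP, the protease partner of CLPX, fell by 0.33, and HSCB, a co-chaperone of iron-sulphur cluster assembly, by 0.51. The call of CLPP was lost with the trend removed and without OGT library 1 or control library 2 or 3 (adjusted p from 0.0559 to 0.0672), and that of HSCB without any library other than control library 1 (adjusted p from 0.0552 to 0.113). The other gene that fell was TRAP1, the mitochondrial HSP90 (-0.19), which lost its call without OGT library 1 or 2 or control library 2 or 3 (adjusted p from 0.104 to 0.13).

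HSF1 itself had 204.86, 197.64 and 195.81 TPM in OGT-overexpressing samples and 165.15, 180.81 and 192.14 TPM in controls. These ranges did not overlap, but the log2 change of 0.15 was not called (limma adjusted p = 0.0756), and its sign turned with the scaling (-0.23 after median centring, adjusted p = 0.0329, and 0.21 with the trend removed, adjusted p = 0.0221). Without control library 3 HSF1 was called (0.21, adjusted p = 0.0337), and without control library 1 its log2 change was 0.10 (adjusted p = 0.164). HSF2 was at 1.72, 1.55 and 0.96 TPM with OGT overexpression and 0.71, 1.13 and 1.54 TPM in controls, with overlap and no call (limma adjusted p = 0.548). Of 8 tested genes of heat shock factors and their regulators 4 rose and 0 fell, with 2 higher and 2 lower after median centring and 3 higher and 1 lower with the trend removed. By adjusted p the first 3 were FKBP1A, CREBBP and the deacetylase gene SIRT1 (log2 changes 0.82, 1.03 and 0.86). SIRT1 was low, at 2.1, 2.44 and 2.78 TPM with OGT overexpression and 1.15, 0.66 and 0.88 TPM in controls. It was not called after median centring, after quantile normalization or with the trend removed.

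Of 18 tested HSF1 target genes outside the 10 chaperones 13 rose and 0 fell, where 39.1% and 9.70% of all tested genes did. Their median log2 change was 0.62. Most of those that rose, among them DNAJA1, HSPA4, BAG3 and STIP1, were also counted in other lists, so this is not a separate set. With the trend removed 9 were higher and 1 lower, after median centring 6 and 4, and after quantile normalization 12 and 0. The chaperonin subunit gene TCP1 rose by 0.98 and was called under each scaling. The 3-unit heat shock element was in windows of 4 of the 68 tested network genes that had a promoter window. This count is per gene, over any of its windows, and no such share was computed over all genes. CHORDC1 (0.76), DNAJA1 (0.93) and DNAJB6 (0.58) rose, CHORDC1 without a call after median centring, quantile normalization or trend removal and without OGT library 1 or 3 (adjusted p from 0.0516 to 0.801), and SERPINH1 had a log2 change of -0.03 and no call (limma adjusted p = 0.776), but was called lower after median centring (-0.42, adjusted p = 0.00855). The small heat shock list had 3 tested genes, of which HSPB8 rose (0.60, limma adjusted p = 0.0023), without a call after median centring.

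Of the 6 endoplasmic reticulum relatives 5 rose and 0 fell, where 39.1% and 9.70% of all tested genes did. HSP90B1, the reticular HSP90, had 70.23, 65.63 and 71.11 TPM in OGT-overexpressing samples, against 21.62, 22.24 and 20.8 TPM in controls (log2 change 1.63, limma adjusted p = 2.98e-05). The HSP70 relative HSPA5 and the J-domain gene DNAJB11 had log2 changes of 0.94 and 0.97. In limma 0 genes of this list, of the HSF1 targets and of the heat shock factor list were lower at an unadjusted p under 0.05. All 3 reticular genes named stayed called under median centring, quantile normalization and with the trend removed.

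**Figure D4:**
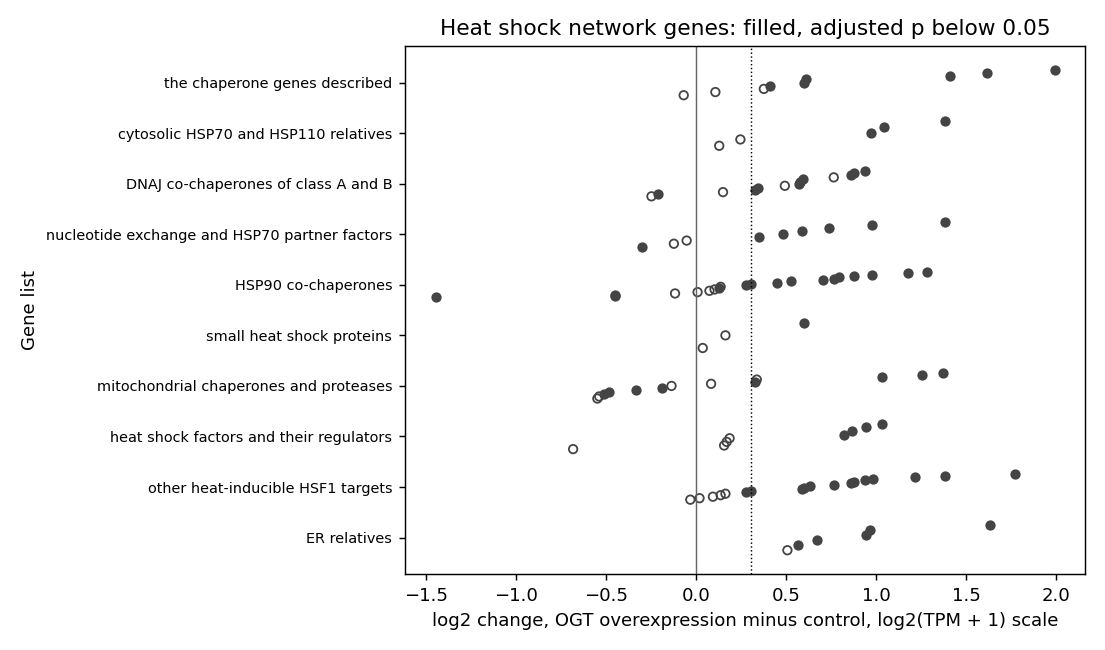
log2 change (OGT overexpression minus control, log2(TPM + 1) scale) of every tested gene in the chaperone lists, 1 row per list; filled points have a limma adjusted p below 0.05, open points do not, the solid line is 0 and the dotted line the median of all tested genes. Genes that fell lie left of 0 in the J-domain, exchange factor, HSP90 co-chaperone and mitochondrial rows.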

How the data were processed

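RNA was sequenced from 6 samples of 786-O cells with a TruSeq RNA kit, per the labels' protocols. The authors deposited TPM per gene, 1 column per sample. How reads were aligned and counted is not given in the sources used here, and the submitters' processing notes name mouse builds although the identifiers are human. Groups and replicate numbers came from sample titles.

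Genes reaching 1 TPM in 3 or more samples were fitted with limma 3.58.1 in R 4.3.3 on log2(TPM + 1) (eBayes with trend and robust, two-sided), after a check on simulated data. Chaperone genes, lists and tests were chosen with earlier results of these data known, so the lists are described by counts and medians without set tests. Named genes were the 10 chaperones, OGT, HSF1, HSF2, HSPA5, HSP90B1, HSPA9 and, per list, up to 3 genes with the smallest adjusted p in each direction; CHORDC1, SERPINH1, HSPA6, TRAP1 and marker genes were added after their values were seen. Of the genes the rule named, 2 are not reported here. Ratios used an exact permutation test. GC content and length came from the longest GENCODE release 29 transcript (97.7% of tested genes), removed with natural splines of 4 degrees of freedom. Of 7 ratios planned, the 2 with HSPA1A were not tested because it is listed at 0 TPM in a library.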

Additional observations from a re-analysis of the deposited data

How the results depend on the processing

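Scaling moved the counts most. Quantile normalization gave 2558 higher and 2245 lower genes over the whole table. There were 1937 and 3066 after median centring, and 1974 and 1582 with the GC and length trend removed, against 4941 and 1227 as deposited. Among the chaperone genes 1, 2 and 1 were lower under these 3 settings, against 0. Network genes numbered 23 higher and 28 lower after median centring, 24 and 17 with the trend removed, and 34 and 16 after quantile normalization. With no filter on low values 3 network genes were lower, and with a replicate left out 3 to 7. HSPA8 and HSPA1B lost their calls after median centring (log2 changes 0.022 and 0.22), HSPA8 also with the trend removed (0.00597). HSPE1 was -0.0135 after median centring, 0.31 and called when summed with HSPE1-MOB4, and 0.14 to 0.57 with a replicate left out. DNAJB1 was called lower after quantile normalization (-0.19), median centring (-0.46) and trend removal (-0.20). HSPB1 was -0.28 after median centring, 0.41 with the trend removed and 0.0208 to 0.193 with a replicate left out. Signs turned for ST13 with the trend removed (-0.21), for STIP1 and HSF1 after median centring (-0.0859 and -0.23), and for HSF2 after quantile normalization, median centring and trend removal (-0.17, -0.20 and -0.42). SERPINH1, not called as deposited, ran from -0.10 to 0.0309 with a replicate left out. HSP90AA1, HSPD1 and HSP90AB1 kept direction and call under every alternative run. HSPH1 did so in every run that held it, and a filter on a mean of at least 5 TPM left it out. The ratios kept their direction with a pseudocount of 1, with a replicate left out and where overlapping genes were summed. They were not recomputed under the other settings. The causes were not tested. Samples sharing a replicate number did not deviate together (r = -0.0194, 0.00264 and 0.0166 for numbers 1, 2 and 3, with the closest partner sharing the number for 1 of 6 samples), so numbers were not used as pairs. A replicate block left 4382 genes higher and 1091 lower. It changed no call among the chaperone genes and ended those of DNAJB2, NUDCD2, FKBPL and TRAP1. Depth is unknown, so counting error of low genes such as HSPH1 and HSPA1A cannot be given.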
